A study of Rattus norvegicus with 176 samples.

Results

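Withdrawal of clofibric acid after DEN was examined in 10 of the 176 liver samples of the series. The rule for choosing them used labels alone: 5 samples whose titles name DEN-Clo together with the tag rev, and 5 whose source is DEN-Clo at 12m, all without a TU or PERI tag. Each sample is a liver section of a different F344 rat, an inbred laboratory strain. The rev rats are numbers 4111, 4112, 4113 (on an array labelled bis), 4114 and 4116, and the rats on continued drug are numbers 4106 to 4110. Both groups had received DEN, read here as the liver carcinogen diethylnitrosamine, and clofibric acid (CA), for which every title states 5000 ppm. The 2 reference groups had received DEN without CA: 6 rats labelled DEN:12rev and 5 rats labelled DEN:12m. Their titles state CA too, as do those of the controls, so for the groups without CA the title and the source name disagree, and treatment is taken here from the source name and the tag in brackets. Rats without DEN also entered: 5 on CA and 5 controls at 9 months, 5 and 5 at 12 months, and 5 rats on CA against 4 labelled Clorev at 18 months. The labels do not spell out rev, which is read here as a period off the drug after 12 months. The length of that period, the age of the rev rats, their sex and the dose and time of DEN are not given in the sources used here. Age and the interval cannot be told apart from withdrawal by the 2 DEN-CA groups alone, so the change between the 2 DEN groups without CA stands beside it.

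Clofibric acid is the active form of the lipid-lowering drug clofibrate and activates PPARalpha, a nuclear receptor that binds DNA together with RXR when a ligand is present. In rodent liver it switches on genes of fatty acid oxidation in mitochondria and peroxisomes, enlarges the peroxisome compartment and, on prolonged feeding, promotes liver tumours. A ligand-driven programme can fall back when the ligand is removed, and promotion of DEN-initiated cells has long been studied with such start and stop designs.

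The values are MAS5 signals, the brightness of a probe set (a group of probes for 1 transcript) on an Affymetrix array, which were brought to 1 median of 99.35 on every array and are called scaled signals below. A change is the difference of mean log2(scaled signal + 25), rev minus continued drug, with its standard error (SE), and adjusted p-values are from limma over 12393 probe sets. Counts of genes take 1 probe set for each of 8733 genes and use an adjusted p below 0.05. Before scaling, the median signal of the 21 DEN arrays ran from 45.0 (rat 4109, on the drug) to 187 (rat 4111, rev). Hepatocyte markers identified all as liver: the summed scaled signal of 13 such genes ran from 89172 to 193450 on the drug and from 71799 to 119890 in rev, with rat 4111 lowest. Of the 13, 0 had an adjusted p below 0.05 (13.3% of all genes did), and their median change was -0.30. A second probe set for Fgb did (-0.74, adjusted p = 0.027), and those for Alb, Apob and Hnf4a did not.

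3 rats stood apart from their groups. In rev rat 4111, whose liver also gave 2 sections tagged as tumour, the cytotoxic lymphocyte genes Prf1 (perforin) and Gzmb (granzyme B) had scaled signals of 1552 and 1267. In the other 4 rev rats Prf1 was 352, 102, 119.8 and 137. Their Gzmb signals were 142, 65.3, 64.3 and 75.5. Among the DEN rats labelled rev without CA, numbers 4081 and 4084 had a different pattern of the liver genes that differ between male and female rats. Cyp2c12, a steroid hydroxylase predominant in female rat liver, was at 7395 and 7475 there, against 171, 132, 164 and 192 in the other 4. Cyp2c11, its male-predominant relative, was at 86.9 and 211, against 5064, 6380.1, 8120.0 and 5238. No rat of the 2 DEN-CA groups showed this pattern: Cyp2c12 ran from 59.2 to 131 and from 113 to 261 on and off the drug. It was 2755 in rat 4077 of the DEN group at 12m, where Obp3 was 2617 and Cyp2c11 6535. Several results that rest on these 3 rats are given with and without them.

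**Figure D1:**
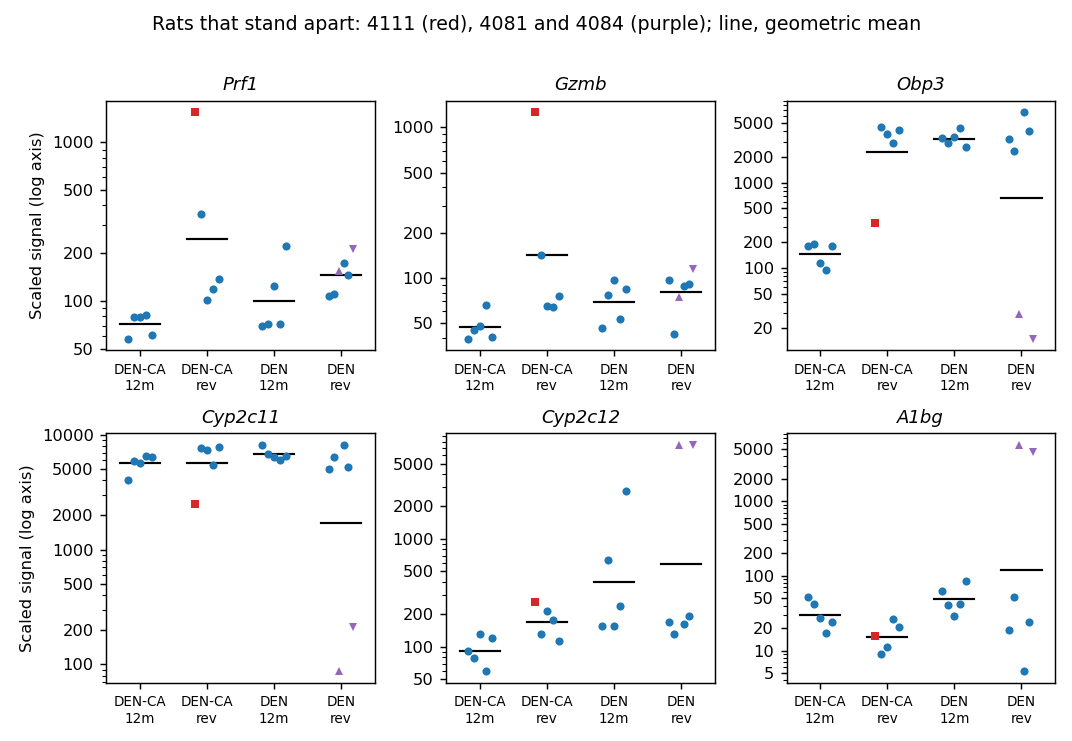
Scaled signal (log axis) of 6 genes in each rat of the 4 DEN groups; each point is a rat, the line is the group's geometric mean, the red square is rev rat 4111 and the purple triangles are DEN rev rats 4081 and 4084. Rat 4111 is highest for Prf1 (1552) and Gzmb (1267), and rats 4081 and 4084 lie apart for Obp3, Cyp2c11, Cyp2c12 and A1bg.

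Rats off the drug had lower signals of the desaturases Scd2 and Fads2, the thioesterase Acot1, histidine decarboxylase (Hdc) and asparagine synthetase (Asns), and higher signals of the apolipoprotein gene Apoa4, the globulin gene Obp3, Cyp3a9, Oat and the complement protease C1s, each by over 4-fold. In all, 1163 of 8733 genes (13.3%) passed the test, 464 lower (5.31%) and 699 higher (8.0%) in rev. Over probe sets 1590 passed, and 981 without rat 4109 of the group on the drug, the dimmest of the 10 arrays. Most shifts were small: 151 genes changed by at least 2-fold and 17 by at least 4-fold. The scaling bears on the split: with quantile normalization 713 genes were higher and 735 lower, and without any scaling 2602 were higher and 36 lower. Unscaled, the median change of all genes was 0.53 rather than 0.01, so every change below is relative to the array's median. Unscaled, 13 of the named falls had the opposite sign, 12 of them pointed out below and the other being Isg20, an interferon-induced nuclease (-0.35 with scaling and 0.11 without).

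Genes that the drug had moved in rats without DEN moved back. These lists were made from other animals, CA against control rats at both 9 and 12 months, and share no array with the 2 DEN-CA groups. Of 256 genes raised by CA there, 160 (62.5%) were lower in rev than on continued drug and 0 were higher, against 5.31% lower among all genes. Their median change was -0.54, against 0.01 over all genes. Of 160 genes lowered by CA, 110 (68.8%) were higher in rev and 0 were lower, with a median change of 0.63. In 150 of the 256 raised genes all 5 rev rats lay below all 5 rats on the drug, as did 5.51% of all genes. In 79 of the 160 lowered genes all 5 rev rats lay above, as did 6.47% of all genes. Rats 4106, 4107 and 4109 on the drug and rat 4111 in rev also gave tumour sections; without these 4 rats, which leaves 2 on the drug and 4 in rev, 85 raised genes were lower (1.39% of all genes were) and 60 lowered genes higher (1.55% of all genes). Of the 151 genes that changed at least 2-fold, 89 were on one of these lists, and of the 17 past 4-fold, 14 were. The lists hold 256 and 160 of all 8733 genes.

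Rat by rat, the median log2 signal of the raised list was 8.85 to 8.98 on the drug and 8.12 to 8.33 in rev, while the DEN rats without CA had 7.98 to 8.26 at 12m and 8.002 to 8.37 in rev. The rev rats thus overlapped the DEN rats and none overlapped the rats on the drug. For the lowered list the medians were 8.36 to 8.60 on the drug and 9.09 to 9.57 in rev, where rat 4111 had the 9.09. The DEN rats without CA lay at 9.30 to 9.70 and at 9.36 to 9.55. Rat 4111 alone fell short of both DEN groups.

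**Figure D2:**
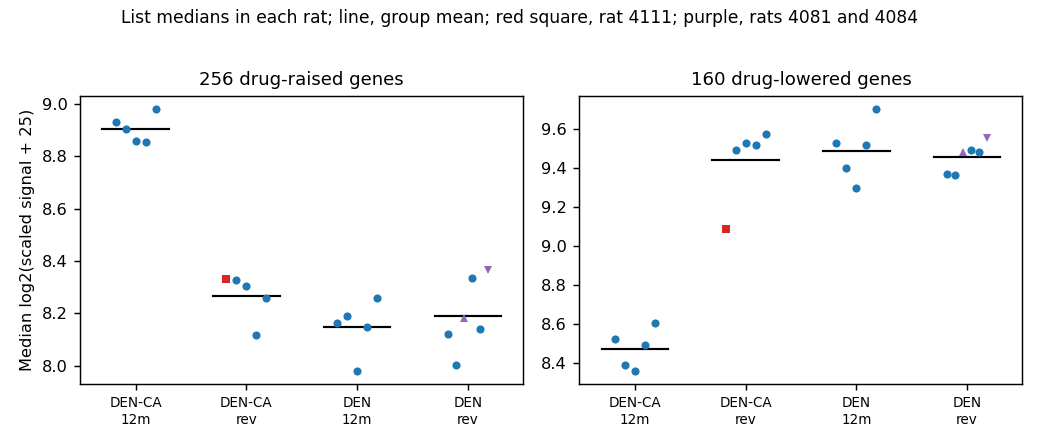
Median log2(scaled signal + 25) of the 256 drug-raised genes (left) and the 160 drug-lowered genes (right) in each rat of the 4 DEN groups; points are rats, lines are group means, the red square is rat 4111 and the purple triangles are rats 4081 and 4084. The rev rats sit between 8.12 and 8.33 for raised genes and between 9.09 and 9.57 for lowered genes, apart from the rats on the drug.

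Few genes passed between the groups without the drug. Between the DEN rats labelled rev and those at 12m, 4 of 8733 genes (0.0458%) passed: Nr1d1, Nrep and Hsd17b2 were lower in rev and Pgd was higher, while 524 had an unadjusted p below 0.05. With single rats left out it was 14 probe sets without rat 4078, 11 without 4080 and 2 without 4074, 4076, 4081 or 4084. Without rats 4081 and 4084 together, chosen after seeing the data, it was 3, all lower in rev. The test of the difference, the change with rev under CA less the change with rev without it, passed for 92 genes lower (1.05%) and 120 higher (1.37%). Among them were 67 of the 256 drug-raised genes, all lower, and 54 of the 160 drug-lowered genes, all higher. Before withdrawal, DEN rats on CA had 312 genes higher (3.57%) and 337 lower (3.86%) than DEN rats without it at 12m.

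Some genes of fatty acid oxidation fell, the bifunctional peroxisomal enzyme most among them. Ehhadh, which carries out hydration and dehydrogenation in peroxisomal beta-oxidation, had scaled signals of 7032, 8225, 9080.5, 11221 and 10659 on the drug. In rev it was at 2650.3, 3120.4, 1849, 2900.0 and 2546. All 5 rev rats lay below all 5 rats on the drug, and 4 of them lay within the span of the DEN rats, which was 2432 to 3507 at 12m and 2249.6 to 4403 in rev. The change was -1.81 ± 0.22 (SE; adjusted p = 1.5e-10), a 3.52-fold fall. Of 25 genes of peroxisomal beta-oxidation and the peroxisome tested, 6 were lower (5.31% of all genes were) and 0 higher, with a median of -0.09 (0.46 without array scaling). The other 5 were Acot8 (-1.26), a peroxisomal thioesterase, the fatty acyl transporter Abcd2 (-0.68), the isomerase Ech1 (-0.49) and the assembly factors Pex3 (-0.47) and Pex19 (-0.42). Ech1, Pex3 and Pex19 had the opposite sign without array scaling, and Ech1 no longer passed without rat 4111 (-0.43, adjusted p = 0.095).

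In mitochondria, Cpt1b, the muscle-type carnitine palmitoyltransferase that admits fatty acids, was at 473, 523, 398, 476 and 439 on the drug and at 145, 316, 119, 184 and 183 in rev. Rat 4112 was highest of the rev rats, still below every rat on the drug, and 4 of the 5 lay above all DEN rats, which were at 68.4 to 144 at 12m and 65.8 to 119 in rev. The change was -1.24 ± 0.20 (SE; adjusted p = 2.6e-06). Of 23 mitochondrial oxidation genes, 8 were lower (5.31% of all genes were) and 2 higher (8.0%), with a median of -0.16 (0.44 without array scaling). Lower were also Eci1 (-0.91), Decr1 (-0.60), Ucp3 (-0.57), Acaa2 (-0.52), Hadha (-0.47), Hadhb (-0.43) and Acadl (-0.39), enzymes of the oxidation spiral apart from the uncoupling protein Ucp3. Higher were Cpt1a (0.44), the liver-type transferase, and Ucp2 (0.61). Without rat 4111, 4 of the 23 were lower, against 3.90% of all genes, and Ucp3 (-0.61, adjusted p = 0.054), Hadha (-0.38, adjusted p = 0.11), Hadhb (-0.38, adjusted p = 0.11) and Acadl (-0.32, adjusted p = 0.11) no longer passed, nor did Ucp2 (0.35, adjusted p = 0.14). Decr1, Acaa2, Hadha, Hadhb and Acadl had the opposite sign without array scaling. Acat1, the mitochondrial thiolase of ketone body and isoleucine metabolism, changed by -1.25 ± 0.16 (SE; adjusted p = 2.4e-09).

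Omega-hydroxylases and thioesterases include 2 of the steepest falls, Acot1 and Acot2. Cyp4a1, the classical PPARalpha target that hydroxylates fatty acids at their end, was at 6224, 6378, 6701, 8505 and 7861 on the drug and 2565, 3454, 2922, 3608 and 3218 in rev. The groups did not overlap, and the rev rats lay within the 2444 to 5030.3 of the DEN rev rats. The change was -1.17 ± 0.19 (SE; adjusted p = 2.5e-06). Acot1, a cytosolic acyl-CoA thioesterase, was at 329, 355, 397, 251 and 265 on the drug. The rev rats had 5.94, 11.1, 1.80, 17.8 and 9.67, under the added constant of 25 in every rat. The change was -3.33 ± 0.34 (SE; adjusted p = 2.2e-14), and it depends on that constant: it was -4.49 with 6 and -1.94 with 99. Acot2, the mitochondrial relative, was at 285, 309.9, 416, 309.8 and 337 on the drug and 82.98, 54.3, 71.01, 49.9 and 40.8 in rev, again without overlap, a change of -2.08 ± 0.29 (SE; adjusted p = 1.5e-08). Acot1 and Acot2 are close in sequence, so their probes may share signal. Of 16 genes in this group 5 were lower (5.31% of all genes were), with Acsl3 (-1.06) and Acsm5 (-0.58), which activate fatty acids, and 1 was higher, with a median of -0.12 (0.47 without array scaling).

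That 1 was Cyp4a8, a kidney-type fatty acid hydroxylase. It was at 50.4, 57.6, 49.8, 58.5 and 35.97 on the drug and 229, 319.6, 237, 375 and 391 in rev. Every rev rat was above every rat on the drug, while the DEN rats without CA were at 599.8 to 1228 at 12m and 312 to 1002 in rev. The change was 2.13 ± 0.21 (SE; adjusted p = 8.2e-15). A second probe set for it gave 2.40.

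**Figure D3:**
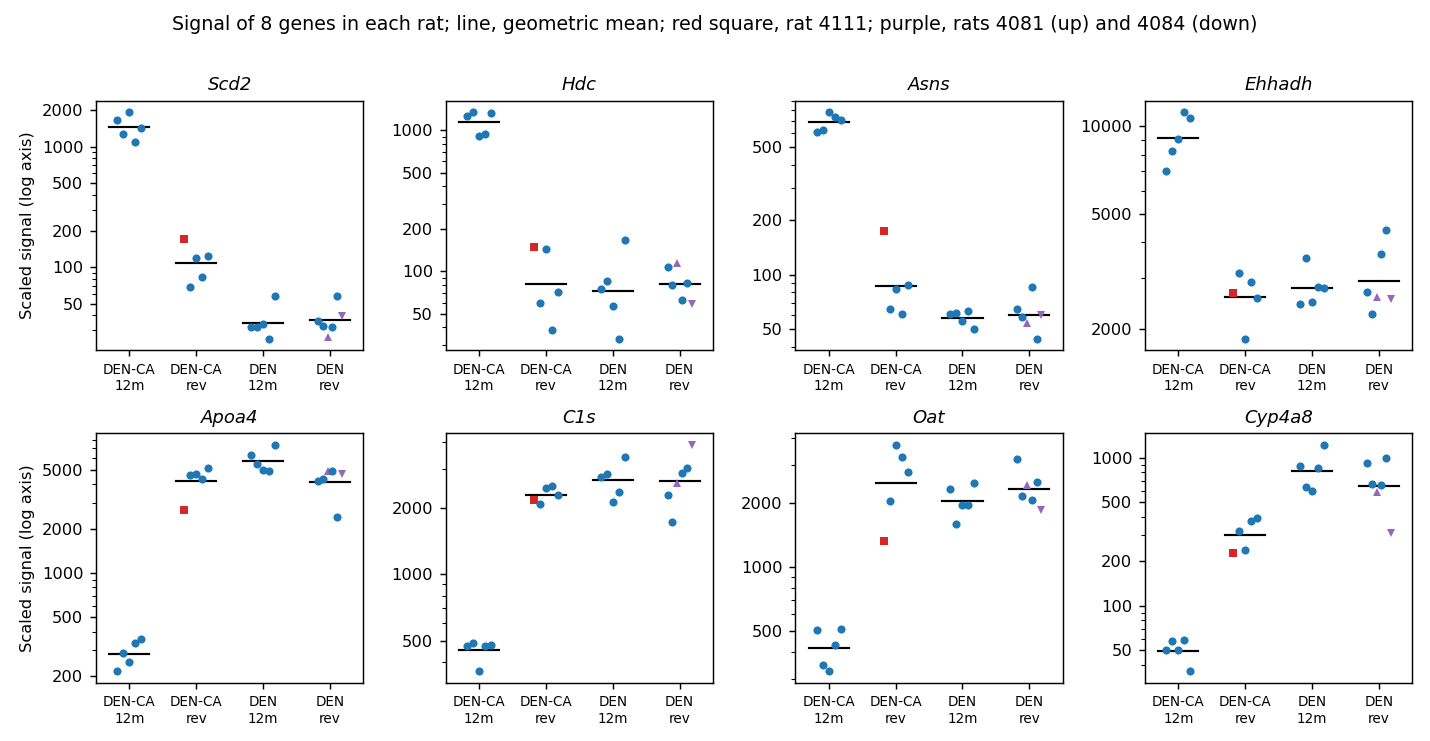
Scaled signal (log axis) of Scd2, Hdc, Asns, Ehhadh, Apoa4, C1s, Oat and Cyp4a8 in each rat of the 4 DEN groups; points are rats, lines geometric means, the red square rat 4111 and purple triangles rats 4081 and 4084. In all 8 genes the 5 rev rats lie apart from the 5 rats on the drug; Scd2 stays above the DEN rats (67.98 to 170.2 against 25.6 to 58.2) and Cyp4a8 below most of them.

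Genes of fatty acid uptake, glycerol channels and lipid droplets were among those that fell. Vnn1, the pantetheinase that breaks down pantetheine and is a strong PPARalpha target, was at 1098, 1432, 1109, 1105 and 1208 on the drug and 200.2, 399, 119.7, 223 and 248 in rev, -2.29 ± 0.36 (SE; adjusted p = 9.9e-07). Aqp3, a water and glycerol channel, was at 238, 208, 132, 200.5 and 185 on the drug. Off the drug the signals were 1.49, 21.1, 1.98, 3.66 and 3.28, with rat 4112 above the other 4 and all under the constant of 25. The change of -2.81 ± 0.24 (SE; adjusted p = 9.2e-18) became -4.18 with a constant of 6 and -1.46 with 99. Aqp7, another glycerol channel, went from 151 to 206 to 32.98 to 59.3 without overlap. Cidea, a lipid droplet protein, was at 970.2, 864, 889, 866 and 983 on the drug and 212, 697, 140.2, 280.3 and 208 in rev. Rat 4112 was again highest of the rev rats. Of 29 genes in the group 9 were lower (5.31% of all genes were), 2 higher (8.0%), and the median was -0.29 (0.21 without array scaling). The lower ones also held Vldlr (-1.38), Lpl (-1.30), Fabp3 (-1.26), Fabp5 (-1.06) and Slc27a2 (-0.58). The higher ones were Fabp2 (0.97) and Slc27a5 (1.25), which joins bile acids to CoA. Slc27a2 had the opposite sign without array scaling, and without rat 4111 Fabp3 (-1.01, adjusted p = 0.11) and Fabp2 (0.80, adjusted p = 0.087) no longer passed. Cd36 (-0.29 ± 0.31 SE, adjusted p = 0.58) and Fabp1 (-0.43 ± 0.17 SE, adjusted p = 0.077), a fatty acid receptor and the abundant liver fatty acid binding protein, overlapped between the groups and did not pass.

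Fatty acid synthesis and desaturation held some of the steepest falls. Scd2, a delta-9 desaturase that makes monounsaturated fatty acids and is scarce in normal liver, was at 1666, 1277, 1942, 1094 and 1437 on the drug. The 5 rev values were 170.2, 67.98, 119, 83.1 and 125. The DEN rats without CA spanned 25.6 to 57.4 at 12m and 26.6 to 58.2 in rev, so the rev rats fell most of the way and every one still lay above every DEN rat. The change was -3.47 ± 0.32 (SE; adjusted p = 2.3e-16), 11.1-fold. It was the largest fall with the constant of 25, while with 6 Acot1, Aqp3 and Hdc (-3.70) fell further than Scd2 (-3.68). Against the DEN rev rats Scd2 was 1.11 ± 0.31 (SE; adjusted p = 0.26), which did not pass over all genes. The second Scd2 probe set gave a change of -2.86.

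Fads2, the delta-6 desaturase of polyunsaturated fatty acid synthesis, was at 4812, 4045, 5529, 5740.2 and 5948 on the drug and 1079, 869, 1039, 1271 and 1297 in rev, -2.21 ± 0.24 (SE; adjusted p = 3.1e-13). Me1, the malic enzyme that supplies NADPH, was at 1262, 1029.6, 1588, 1183 and 1075 on the drug and 378, 184, 257, 237 and 438 in rev, -1.996 ± 0.20 (SE; adjusted p = 2.2e-14). For both, the rev rats overlapped the DEN rats and not the rats on the drug. Scd, the main liver desaturase, was at 5938, 5526, 7264, 6670.4 and 6010.1 on the drug and 880.3, 1021, 2634, 2085 and 3114 in rev, -1.84 ± 0.39 (SE; adjusted p = 0.00046). Scd spread widely in the DEN rats, from 824 to 3748 in rev, and its difference between drug and no drug did not pass (-0.99 ± 0.55 SE, adjusted p = 0.43). Srebf1, which encodes the transcription factor of lipogenic genes, changed by -1.72 ± 0.32 (SE; adjusted p = 3.3e-05). In all 8 of 21 genes were lower (5.31% of all genes were), also Elovl6 (-1.10), Thrsp (-1.06) and Dgat1 (-0.38), and 1, Pklr (0.64), was higher. The median was -0.52 (0.06 without array scaling). Dgat1 had the opposite sign without array scaling, and without rat 4111 it (-0.35, adjusted p = 0.088) and Thrsp (-0.79, adjusted p = 0.091) no longer passed. Of 17 cholesterol genes Insig1 (-1.39) and Fdps (-1.10) were lower and Idi1 (0.97) higher, against 5.31% and 8.0% of all genes.

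Amino acid genes gave the highest share of falls among the 31 lists: 12 of 22 in the amino acid response through ATF4 (5.31% of all genes fell), with a median of -0.66 (-0.10 without array scaling). ATF4 is a transcription factor made when translation initiation is curbed by amino acid shortage or ER stress, and it raises genes for amino acid synthesis and uptake. Asns, asparagine synthetase, was at 610.2, 621, 783, 735 and 709.7 on the drug. Rev rats stood at 174, 64.2, 83.5, 60.8 and 87.2, with rat 4111 highest. The DEN rats were at 49.99 to 62.6 and 44.4 to 85.1. The change was -2.66 ± 0.25 (SE; adjusted p = 2.3e-16). Phgdh, the first enzyme of serine synthesis, was at 319, 406, 314, 292 and 357 on the drug and 211, 102, 59.6, 7.25 and 59.7 in rev. Here too rat 4111 was highest and the groups did not overlap, -1.96 ± 0.36 (SE; adjusted p = 3.5e-05). The others were Nupr1 (-1.70), Trib3 (-1.42), Slc3a2 (-1.38), Vldlr (-1.38), Psat1 (-1.36), Mthfd2 (-0.95), Ddit4 (-0.88), Ddit3 (-0.71), Atf4 itself (-0.61) and Psph (-0.53). Without rat 4111 Psph no longer passed (-0.47, adjusted p = 0.092). Of 23 unfolded protein response genes Herpud1 (-0.81) was lower and Sel1l (0.47) higher, against 5.31% and 8.0% of all genes. Without rat 4111 Herpud1 no longer passed (-0.76, adjusted p = 0.094).

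Since these genes moved together, the 250 bases before their starts in RefSeq (assembly GRCr8, first window of each gene) were searched for TGATGNAA, the core of the C/EBP-ATF response element, and for TTNCATCA, the same motif on the other strand; no other motif was searched. A promoter window was matched for 21 of the 22 genes and 5 held the motif: Chac1, Fgf21, Nupr1, Slc7a1 and Trib3. Over all 27457 windows 899 (3.27%) held it. Of the 12 genes that fell, Nupr1 and Trib3 held it, and both are shown because they are the fallen genes with a match. Both windows lie on the minus strand and are written 5′ to 3′ along the gene, up to the base before its start, with the motif in capitals. Nupr1, chr1:190645902-190646151, has the match from position -55:
Nupr1: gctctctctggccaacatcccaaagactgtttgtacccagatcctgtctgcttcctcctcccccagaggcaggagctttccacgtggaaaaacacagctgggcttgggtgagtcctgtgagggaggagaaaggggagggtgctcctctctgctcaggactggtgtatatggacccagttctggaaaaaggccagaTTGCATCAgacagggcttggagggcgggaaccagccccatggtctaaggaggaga
Trib3, chr3:161275534-161275783, has it from position -21:
Trib3: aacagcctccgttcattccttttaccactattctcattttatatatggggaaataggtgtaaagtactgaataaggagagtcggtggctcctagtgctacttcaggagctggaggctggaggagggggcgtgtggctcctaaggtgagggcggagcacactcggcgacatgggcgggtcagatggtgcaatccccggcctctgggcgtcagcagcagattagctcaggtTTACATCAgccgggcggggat
Nupr1, a small chromatin protein of the stress response, was at 999, 1303, 1889.5, 1618 and 2036 on the drug and 486, 389, 591, 372 and 451 in rev, -1.70 ± 0.25 (SE; adjusted p = 8.8e-08). Trib3, a pseudokinase induced by ATF4, was at 463, 549, 485, 856 and 829.9 on the drug and 236, 296, 195, 131 and 250.1 in rev, -1.42 ± 0.48 (SE; adjusted p = 0.034). Both groups of values were separate. A match is only a string of letters, and its absence in other windows says nothing of binding.

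Among 40 genes of amino acid breakdown and the urea cycle 3 were lower and 3 higher, near the shares of all genes, yet single members moved far. Hdc, histidine decarboxylase, which makes histamine, was at 1250.5, 1343, 912, 936 and 1312 on the drug. The rats off the drug had 148, 59.7, 143, 38.6 and 71.3. The DEN rats were at 33.3 to 168 and 58.9 to 115, and the rev rats lay among them. The change was -3.42 ± 0.36 (SE; adjusted p = 8.9e-14), 10.7-fold. Bhmt (-0.98) and the branched-chain keto acid dehydrogenase subunit Bckdha (-0.96) were also lower, though Bhmt no longer passed without rat 4111 (-0.77, adjusted p = 0.12). Oat, ornithine aminotransferase, went the other way, from 509, 346, 324, 429.9 and 512 on the drug to 1328, 2026, 3733, 3287 and 2772 in rev, 2.50 ± 0.33 (SE; adjusted p = 2e-09). Its 5 rev values overlapped the 1857 to 3197 of the DEN rev rats, with rat 4111 lowest. Acmsd (1.09), of tryptophan breakdown, and Cbs (0.62) were higher too.

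Single apolipoprotein and complement genes rose several fold. Apoa4, an apolipoprotein of triglyceride-rich particles and HDL, was at 215, 285, 249, 336 and 355 on the drug. In rev the values were 2659, 4605, 4697, 4315 and 5178, with rat 4111 lowest, and the DEN rats spanned 4883 to 7400.2 at 12m and 2399 to 4938 in rev. The change was 3.77 ± 0.22 (SE; adjusted p = 1e-30), 13.6-fold. Of 14 apolipoprotein and lipoprotein enzyme genes 4 were higher (8.0% of all genes were) and 0 lower, the others being Apom (1.44), Scarb1 (0.62) and Lcat (0.39). Apoa1 overlapped and did not pass, -0.26 ± 0.21 (SE; adjusted p = 0.45).

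C1s, a serine protease of the first complement component, was at 475, 487, 362, 471 and 479.5 on the drug and 2172, 2082, 2469.8, 2511 and 2305 in rev, 2.29 ± 0.21 (SE; adjusted p = 3.7e-16). C1r, its activating partner, was at 344, 401, 361, 563 and 352 on the drug and 1434, 1609.6, 1438, 1188 and 1497 in rev, 1.78 ± 0.20 (SE; adjusted p = 1.2e-12). For both the groups did not overlap, and the rev rats lay within the span of the DEN rats apart from rat 4114 for C1r. Of 24 coagulation and complement genes 6 were higher (8.0% of all genes were) and 0 lower, also Mbl1 (0.59), Mbl2 (0.50), C8b (0.37) and Cfi (0.37). Cxcl12, a chemokine, was at 819, 910.3, 748, 836 and 953 on the drug and 1799, 2821, 2331, 2364 and 2499 in rev, 1.43 ± 0.17 (SE; adjusted p = 8.3e-11). Il33, an alarmin cytokine, was at 281, 258, 284, 296 and 332 on the drug and 537, 543, 839, 933 and 647 in rev, 1.17 ± 0.25 (SE; adjusted p = 0.00036). Angptl4, a lipoprotein lipase inhibitor usually counted among PPARalpha targets, was higher in rev, from 248 to 412 to 518 to 982. Of 18 acute phase genes 0 passed in either direction, against 13.3% of all genes.

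Liver genes that depend on growth hormone and sex rose in 6 of 25 (8.0% of all genes did), with 0 lower. Obp3, an abundant male-type urinary globulin gene of the Mup family, was at 179.5, 191, 116, 94.7 and 181 on the drug. Its rev signals were 334, 4453, 3674, 2898 and 4127. Rat 4111 was far below the other 4 rev rats, yet above all rats on the drug. The DEN rats were at 2617 to 4289 at 12m and at 3199, 2322, 29.5, 6682, 4025 and 15.01 in rev, where the 2 low values are rats 4081 and 4084. The change was 3.77 ± 0.66 (SE; adjusted p = 1.3e-05), and family members close in sequence may share its probes. Rgn, a calcium-binding protein of hepatocytes also known as senescence marker protein, was at 1352, 1114, 1154, 893 and 1704 on the drug and 2467, 3236, 3986, 3241 and 4339 in rev, 1.46 ± 0.19 (SE; adjusted p = 1.3e-09). Igfbp3 (0.97), an IGF carrier, Cish (2.22) and Socs3 (0.64), both inhibitors of cytokine signalling, and Oat made up the 6. Cyp2c11, the standard male-type P450, did not pass (0.01 ± 0.62 SE, adjusted p = 0.99).

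Of 31 P450 and conjugation genes 5 were lower (5.31% of all genes were) and 3 higher, near the 8.0% of all genes, with a median of 0.01. Cyp3a9, a steroid-hydroxylating P450, was at 140.5, 160.4, 155, 162 and 127 on the drug and 487, 1734, 1158, 1469 and 1188 in rev, 2.72 ± 0.37 (SE; adjusted p = 1.4e-08). Ugt2b1, a glucuronosyltransferase, went from 714, 542, 823, 917 and 973 to 1814, 3457, 2599, 2731 and 2538, 1.69 ± 0.32 (SE; adjusted p = 6.2e-05). Fmo1 was the third (1.15). In Cyp3a9 and Ugt2b1 the rev rats all lay above, with rat 4111 lowest in each. The lower genes were Cyp17a1 (-1.17), Cyp2j4 (-0.94), Cyp2c22 (-0.86), Ces2c (-0.84) and Sult1b1 (-0.46). Sult1b1 had the opposite sign without array scaling and no longer passed without rat 4111 (-0.34, adjusted p = 0.11). In bile acid metabolism Nr0b2, which encodes the repressor SHP, was at 962, 1719, 1381, 2101 and 1632 on the drug and 463, 277, 430.0, 388 and 479 in rev, -1.85 ± 0.41 (SE; adjusted p = 0.0008). Its partner in the feedback, Fgfr4, rose by 1.38, Cyp27a1 fell by 0.71, Ephx1 changed by -0.63, and Cyp7a1, the rate-limiting enzyme of bile acid synthesis, did not pass (-0.56 ± 0.32 SE, adjusted p = 0.25).

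Markers of immune and stromal cells were higher in rev, in fewer genes when rat 4111 was left out and in very few without the 4 rats with tumour sections. In whole liver sections more cells of a type and more RNA per cell cannot be told apart. Of 15 macrophage and Kupffer cell genes 11 were higher (8.0% of all genes were) and 0 lower, with a median of 0.65. Their summed scaled signal was 7061 to 9157 on the drug and 10673 to 20311 in rev, where rat 4111 had the highest value. DEN rats without CA had 9634 to 13221 at 12m and 9191 to 14782 in rev, so the rats on the drug were the lowest of the 4 groups. Without rat 4111, 4 of the 15 were higher, against 6.95% of all genes. Those that passed with all rats included Cd14 (1.38), the endotoxin co-receptor, C1qa (0.97), C1qc (0.91), Gpnmb (1.02; 0.78, adjusted p = 0.053 without rat 4111) and Ctss (0.74). Cd14 was at 491, 508, 389.6, 576 and 617 on the drug and 1022, 1682, 1192, 1675 and 1419 in rev, and rat 4111 was the lowest of the rev rats there. C1qa was at 666, 695, 623, 818 and 782 on the drug and 2066, 1506, 1307, 1370.5 and 1033 in rev, with rat 4111 highest.

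Of 19 lymphocyte and NK cell genes 9 were higher (8.0% of all genes were), Ccl5 (1.77), Prf1 (1.55) and Cd8a (1.43) among them. Only 1 was without rat 4111, against 6.95% of all genes. Without that rat Ccl5 was at 1.18, adjusted p = 0.07, Prf1 at 0.93, adjusted p = 0.14 and Cd8a at 0.84, adjusted p = 0.091. The summed signal of the list was 1208 to 1886 on the drug and 1709.8 to 15688 in rev, with 1629.9 to 3306 and 2126 to 4207 in the 2 groups of DEN rats. Of 39 interferon and antigen presentation genes 7 were higher (8.0% of all genes were) and 1 lower. Without rat 4111, 3 were higher, near the 6.95% of all genes, and 0 lower. Stellate and fibroblast genes were higher in 7 of 23 (8.0% of all genes were), among them Pdgfra (1.10), Col6a1 (0.56) and Col3a1 (0.60). Without rat 4111 it was 5, against 6.95% of all genes, and Col3a1 no longer passed (0.47, adjusted p = 0.098). Endothelial genes passed in 0 of 13 and granulocyte and mast cell genes in 0 of 8, against 13.3% of all genes in either direction. The summed stellate signal was 4072 to 4372 on the drug and 5037 to 6411 in rev. DEN rats without CA had 4546.5 to 5398 at 12m and 3994 to 6339 in rev. The summed endothelial signal was 2779 to 3729 on the drug and 3742 to 4367 in rev, with 3249 to 4186 and 3099 to 4490 in the DEN rats. Of 28 cell cycle genes Ccnd1 (1.05), Mcm6 (0.77) and Mcm7 (0.61) were higher, near the 8.0% of all genes, and 1 of 26 was without rat 4111 (6.95% of all genes), when Mcm7 no longer passed (0.44, adjusted p = 0.066). Without the 4 rats with tumour sections 1 of 15 macrophage, 0 of 19 lymphocyte, 1 of 23 stellate, 1 of 39 interferon and 0 of 26 cell cycle genes were higher, against 1.55% of all genes. That comparison has only 2 rats on the drug and 4 in rev. In the same order, the median changes there were 0.51, 0.30, 0.24, 0.06 and 0.04. With all rats they were 0.65, 0.75, 0.24, 0.21 and 0.30. The part of these cell types in the other results was not tested.

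Of 17 preneoplastic and tumour markers, Scd2, Akr7a3 (-0.86) and Krt18 (-0.54) were lower, against 5.31% of all genes, and 0 were higher, and Krt18 had the opposite sign without array scaling. Without rat 4111 Akr7a3 no longer passed (-0.86, adjusted p = 0.052). The summed signal of the list was 6001 to 7137 on the drug and 3759.8 to 5938 in rev, without overlap and with rat 4111 highest in rev, and 3708 to 4378 and 3174 to 5137 in the DEN rats at 12m and in rev. Scd2 made up 1094 to 1942 of that sum on the drug and 67.98 to 170.2 in rev. With Scd2 taken out, rat 4111 lies above the rats on the drug, and the other rev rats lie below them. The median change of the list was -0.14. Gstp1, the placental glutathione S-transferase that marks altered foci, was at 448, 352, 330.3, 386 and 386 on the drug and 762, 385, 326, 342 and 357 in rev, 0.11 ± 0.23 (SE; adjusted p = 0.8). Rat 4111 alone was high. Phlda3, a p53 target, was higher in rev (1.11 ± 0.20 SE, adjusted p = 2.3e-05), the 1 of 13 p53 and DNA damage genes to pass, near the 8.0% of all genes. Of 38 glutathione and stress genes 2 were higher and 2 lower, against 8.0% and 5.31% of all genes. Hmox1 did not pass (0.48 ± 0.21 SE, adjusted p = 0.12). Of 22 glucose genes 2 were higher and 1 lower, near the 8.0% and 5.31% of all genes.

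**Figure D4:**
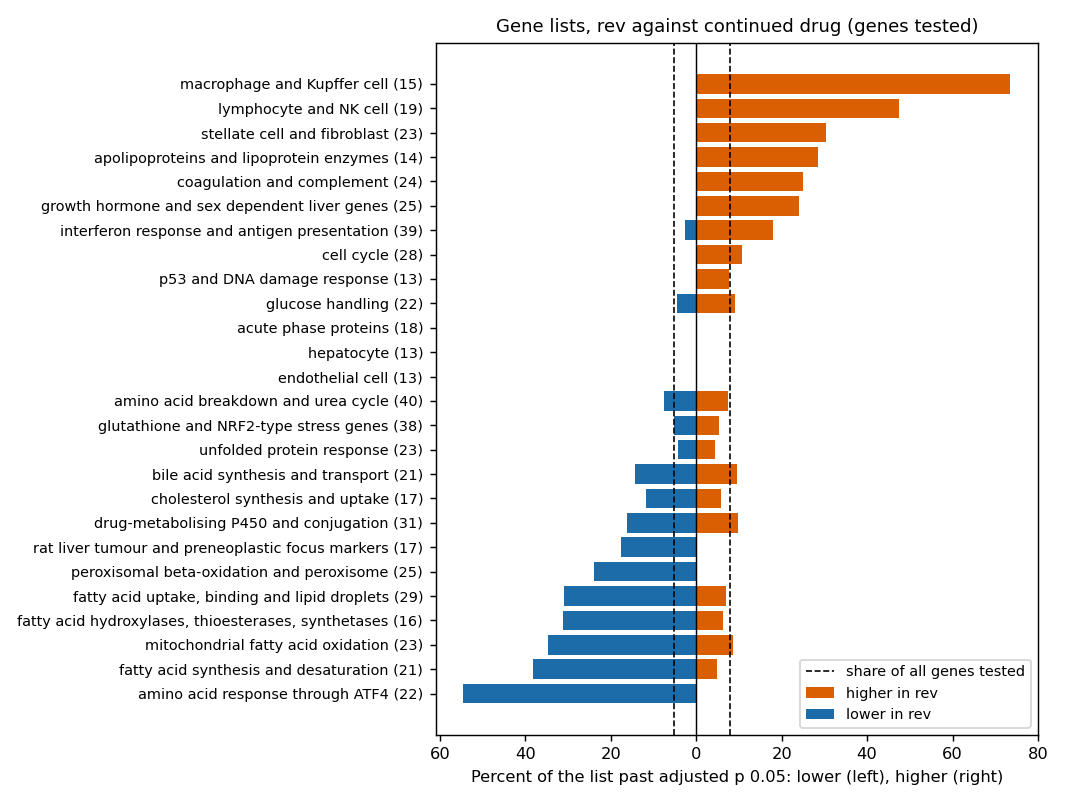
Percent of each gene list that passed an adjusted p of 0.05 in rev against continued drug, lower to the left and higher to the right, for lists with at least 10 genes tested (number in brackets); dashed lines mark the shares of all genes, 5.31% lower and 8.0% higher. ATF4 genes (12 of 22 lower) stand at one end and macrophage genes (11 of 15 higher) at the other.

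Without the 4 rats with tumour sections fewer list genes passed, as fewer of all genes did (1.39% lower and 1.55% higher). Lower were then 9 of 22 ATF4 genes, 7 of 29 of uptake and lipid droplets, 4 of 21 of fatty acid synthesis, 4 of 16 hydroxylases and thioesterases, 3 of 23 of mitochondrial oxidation and 2 of 25 of the peroxisome. Higher were 2 of 14 apolipoprotein, 3 of 24 complement and 4 of 25 growth hormone and sex dependent genes. Of 17 tumour markers 1 was lower.

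For Nrep the changes with and without the drug had opposite signs and both passed. Nrep, a small neuronal regeneration protein, was at 135, 129, 67.4, 48.8 and 164 on the drug and 242, 611, 703, 344 and 675 in rev, and rose by 1.99. In DEN rats without CA it went from 304 to 1179.8 at 12m to 15.5 to 361 in rev, a change of -2.08 ± 0.45 (SE; adjusted p = 0.03). Rats 4081 and 4084 had the lowest of these rev values, 15.5 and 42.4, against 99.35 to 361 in the other DEN rev rats. The size of that change without these rats is not given here. The difference of the changes was 4.07 ± 0.65 (SE; adjusted p = 3.2e-06), and it still passed without rats 4081 and 4084. Cish was at 40.4, 49.96, 48.4, 12.8 and 29.5 and 38.8, 486, 396, 538 and 185 with the drug, overlapping through rat 4111, and at 427, 679, 482, 116 and 80 and 39.9, 64.6, 128, 23.4, 53.3 and 206 without. Cish passed under CA (2.22) and not without it (-1.64 ± 0.60 SE, adjusted p = 0.55), and the difference was 3.86 ± 0.87 (SE; adjusted p = 0.0025). Slc25a30, a mitochondrial carrier, likewise passed under CA (1.42) and not without it (-1.28 ± 0.40 SE, adjusted p = 0.41), with a difference of 2.70 ± 0.58 (SE; adjusted p = 0.0011). Socs2 passed in neither (1.35 ± 0.54 SE, adjusted p = 0.083 under CA and -1.51 ± 0.52 (SE; adjusted p = 0.45) without it), while its difference did, 2.87 ± 0.75 (SE; adjusted p = 0.014), but not without the 4 rats with tumour sections (adjusted p = 0.072).

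Hsd17b2, which inactivates sex steroids, and Nr1d1, a clock repressor, passed between the drug-free groups and not between the DEN-CA groups. Hsd17b2 was at 1015 to 2306 in DEN rats at 12m and 294 to 461 in rev, -2.01 ± 0.24 (SE; adjusted p = 6.3e-10), while with CA it was at 272 to 348 and 386 to 647, 0.57 ± 0.25 (SE; adjusted p = 0.11). Nr1d1 was at 225 to 375 and 19.6 to 113, -1.68 ± 0.29 (SE; adjusted p = 0.00029), and with CA at 35.4 to 145 and 47.96 to 162. The difference of changes was 2.58 ± 0.34 (SE; adjusted p = 7.9e-09) for Hsd17b2. For Nr1d1 that difference is not given here, and passing in 1 comparison alone does not show that its changes differ. Obp3 had the highest difference among the named genes, 5.68 ± 0.92 (SE; adjusted p = 3.8e-06), and it fell to 3.57 without rats 4081 and 4084. Among genes that fell, the difference was -3.64 ± 0.47 (SE; adjusted p = 2.4e-09) for Acot1, -3.52 ± 0.49 (SE; adjusted p = 5.5e-08) for Hdc, -3.50 ± 0.45 (SE; adjusted p = 1.8e-09) for Scd2 and -2.70 ± 0.34 (SE; adjusted p = 1.6e-09) for Asns. Serpinb9b, a serpin of the granzyme inhibitor family, also fell under CA (-2.15 ± 0.36 SE, adjusted p = 3.3e-06) with a difference of -2.90 ± 0.50 (SE; adjusted p = 1.6e-05).

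Few genes still differed between rats off the drug and rats without it. Against DEN rats labelled rev without CA, 11 of 8733 genes (0.126%) passed, 7 higher and 4 lower, while 395 had an unadjusted p below 0.05. Of these 11 genes 10 were on the drug lists, 7 of the 256 raised and 3 of the 160 lowered, each on the drug's side. For 236 of the 256 raised and 153 of the 160 lowered genes the 95% interval of that difference lay within 1 log2 unit of 0 on either side, with a median half-width of 0.305 and 0.343. For the others the interval reached past 1 log2 unit.

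Chrna2, a nicotinic acetylcholine receptor subunit, was the plainest. It was at 470.3, 474, 517, 625 and 482 on the drug and 396, 548, 371, 328 and 438 in rev, overlapping, while DEN rats had 62.9 to 87.1 at 12m and 46.5 to 89.7 in rev. Its change on withdrawal was -0.30 ± 0.31 (SE; adjusted p = 0.58), and against DEN rev rats it was 2.23 ± 0.30 (SE; adjusted p = 4.7e-08), 4.69-fold. Cela1, an elastase of pancreatic acinar cells, was at 768, 770.5, 1007, 1124 and 879 on the drug and 238, 476, 556, 204 and 289 in rev. It fell (-1.39 ± 0.33 SE, adjusted p = 0.0014) and yet lay above every DEN rev rat, 10.4 to 99.01, by 2.38 ± 0.31 (SE; adjusted p = 1.9e-08). Of 8 pancreatic acinar genes tested Cela1 and Cpb1 (-0.62) were lower in rev (5.31% of all genes were) and 0 higher, and the median change of the list was -0.04. The summed signal of the list was 1072 to 1374 on the drug and 429 to 809 in rev. Cela1 alone made up 768 to 1124 of that sum on the drug and 204 to 556 in rev. A further 7 genes of that list were below the filter.

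Nipal2, a magnesium transporter-like protein, was at 349, 314, 312, 340.2 and 359 on the drug and 102, 121, 109, 112 and 114 in rev, with DEN rev rats at 32.1 to 61.2, a difference of 1.02 ± 0.13 (SE; adjusted p = 1.9e-08). The 5 rev rats lay in a narrow band between both groups. Col4a5, a basement membrane collagen chain, was at 171, 119, 152, 113 and 157 on the drug and 81.5, 81.5, 119.5, 156 and 135 in rev, which overlapped, against 36.1 to 65.5 in DEN rev rats, 0.85 ± 0.15 (SE; adjusted p = 0.00011). Anxa7, an annexin, was at 323, 175, 200.4, 143 and 194 in rev, 0.70 ± 0.15 (SE; adjusted p = 0.0071), but a second probe set gave 0.17 (adjusted p = 0.9997). Rtn4, the reticulon Nogo, was at 563, 294, 266, 439.6 and 254, 1.08 ± 0.25 (SE; adjusted p = 0.027), and its second probe set gave 0.69 (adjusted p = 0.68). Sri, the calcium-binding sorcin, was at 255, 158, 203, 164 and 171, 0.63 ± 0.14 (SE; adjusted p = 0.023). Without rat 4111, highest of the rev rats for Anxa7, Rtn4 and Sri, these 3 no longer passed (adjusted p = 0.25, 0.3 and 0.29).

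On the lower side Tpd52l1, a vesicle trafficking protein, was at 74.9, 82.6, 45.5, 59.2 and 47.5 on the drug and 60.9, 122, 118, 76.5 and 134 in rev, overlapping, against 172 to 313 in DEN rev rats, -1.07 ± 0.19 (SE; adjusted p = 0.00013). C1qtnf3, a secreted C1q and TNF-like protein, was at 38.1, 50.02, 34.2, 59.8 and 40.9 in rev against 60.3 to 144, -0.87 ± 0.20 (SE; adjusted p = 0.025), and no longer passed without rev rat 4111 (-0.84, adjusted p = 0.11). It also no longer passed without rev rat 4113 (-0.82) or 4116 (-0.86), or without DEN rev rat 4078 (-0.79), 4080 (-0.85), 4082 (-0.84) or 4083 (-0.82). Cyp4a8 had risen but lay at -1.04 ± 0.20 (SE; adjusted p = 0.002) from the DEN rev rats, and its second probe set at -0.89 (adjusted p = 0.088). Acot2, on neither drug list, lay below the DEN rev rats, 40.8 to 82.98 against 67.2 to 329, -1.35 ± 0.28 (SE; adjusted p = 0.0049). Without rats 4081 and 4084 the Acot2 difference was -0.99 and did not pass (adjusted p = 0.61).

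**Figure D5:**
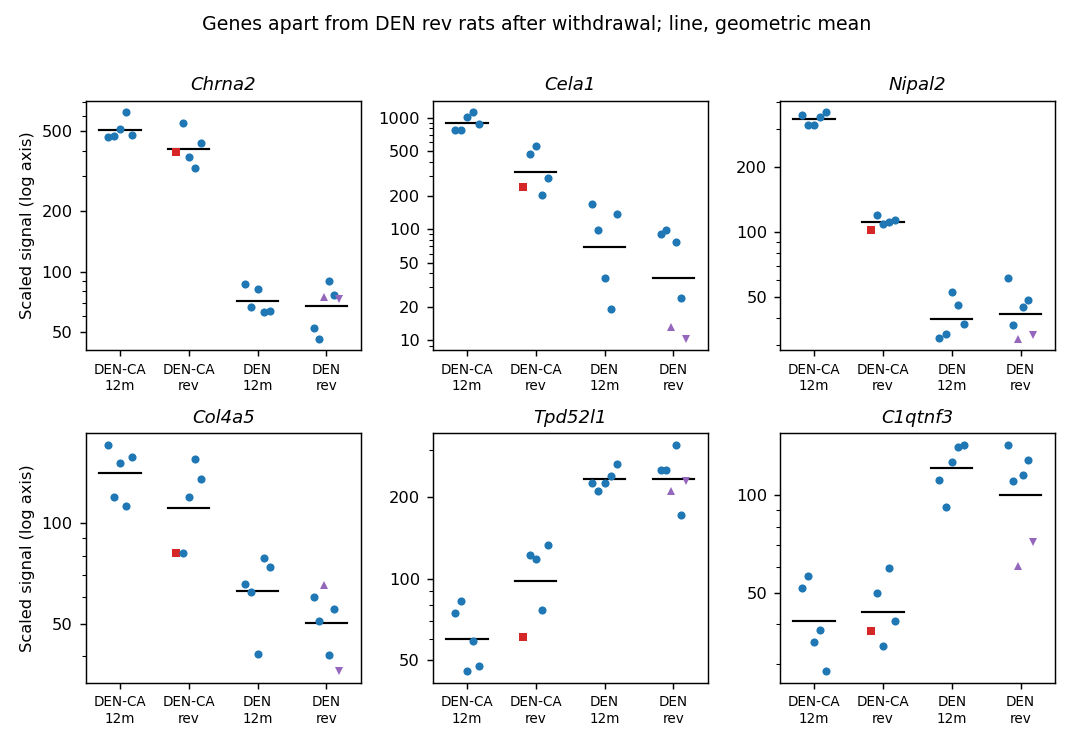
Scaled signal (log axis) of Chrna2, Cela1, Nipal2, Col4a5, Tpd52l1 and C1qtnf3 in each rat of the 4 DEN groups; points are rats, lines geometric means, the red square rat 4111, purple triangles rats 4081 and 4084. Chrna2 in rev (328 to 548) stays with the rats on the drug, while Nipal2 in rev (102 to 121) lies between the groups.

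Withdrawal had also been sampled without DEN, in rats labelled Clorev against CA at 18m, which share no array with the DEN groups. There 695 genes were lower (7.96%) and 604 higher (6.92%). These 4 Clorev rats had Cyp2c12 at 4953 to 6824 against 71.9 to 184 on CA, and Cyp3a2, a male-predominant P450, at 109.5 to 278 against 3754 to 7284, the pattern seen above in DEN rats 4081 and 4084; its part in the comparison was not tested. Of the 256 drug-raised genes 151 (59%) were lower there, and 111 passed in both settings, 69.4% of those lower after DEN and 73.5% of those lower without it. Of the 160 drug-lowered genes 104 (65%) were higher there and 1 lower, and 78 passed in both, 70.9% and 75% of the respective sets. Over all genes 356 passed in both, 30.6% of the genes called after DEN and 27.4% of those called without it. Of these, 335 had the same direction and 21 the opposite one.

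Side by side, single genes gave these steps. Scd2 changed by -3.47 after DEN and -3.38 without it, Hdc by -3.42 and -2.99, Asns by -2.66 and -3.29, Apoa4 by 3.77 and 4.39, and Cyp4a8 by 2.13 and 2.20. Whether such pairs differ was not tested. Vnn1 changed by -2.29 and -3.69, and Cpt1b by -1.24 and -2.01. Obp3 rose after DEN and not without it (0.07 ± 0.70 SE, adjusted p = 0.96), where it was already low in all rats of both groups, 14.2 to 82.0 on CA and 18.2 to 67.6 in Clorev. Serpinb9b fell after DEN and was 0.08 ± 0.38 (SE; adjusted p = 0.92) without it. Chrna2 passed without DEN (-1.22 ± 0.33 SE, adjusted p = 0.006) and not after it, a difference that was not tested.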

How the data were processed

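The data are Affymetrix expression arrays of liver sections of F344 rats, 176 in all, with 1 column for each sample in 1 deposited table of 15922 probe sets. The deposited values are linear intensity signals made with MAS5, per the submitters' processing notes; the version and any global scaling are not given in the sources used here. All 176 columns were matched to samples by name. Probe sets were named through the platform annotation and RefSeq: 12783 have 1 gene (12748 by gene ID, 2 by accession, 33 by the array's name), 312 several and 2827 none here.

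Each array was divided by its median and brought to 99.35. With R 4.3.3 and limma 3.58.1, log2(scaled signal + 25) was fitted with a mean per group over 148 untagged sections (118 residual degrees of freedom, lmFit, eBayes with a trend). Sections tagged TU, PERI or the like were left out. A probe set was tested if it lay above its array's 40th percentile on at least 3 arrays. Tests are two-sided with Benjamini-Hochberg adjustment over 12393 probe sets, and each of 8733 genes takes its probe set with the highest mean. The 95% intervals come from the same fit. The code was checked on simulated data. Replicates are rats with different numbers, and the number of arrays limits the precision. Correlations between the 10 arrays compared ran from 0.961 to 0.985, so no array was a copy of another.

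Genes were named by rule: the 15 highest and 15 lowest changes that passed with no overlap between the groups, the 6 highest and 6 lowest differences of changes, up to 5 genes of each of 31 lists, up to 8 raised and 8 lowered genes that had not moved back, and a panel. The other list members that passed, the genes set apart in single rats and the 11 genes of the comparison with DEN rev rats were named after their values were seen. The groups, panel and lists were chosen with earlier results of these data known. Alternatives were other constants, scalings, filters, weights and fits, a 2-fold minimum, and leaving out rats.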

Additional observations from a re-analysis of the deposited data

Results flagged for a closer look

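In 86 groups of 5 or 6 rats looked at for 1 gene each, 10 had a rat far from the others by Dixon's test, and chance gives about 1 in 20. In 7 of the 10 it was a rev rat, and in 5 it was rat 4111. Rat 4111 was lowest for Obp3 (334), Apoa4 (2659) and Fabp1 (7414), and highest for Cd9 (257), a tetraspanin, and Gstp1 (762). Rev rat 4112 was highest for Aqp3 (21.1), a signal under the added constant, and rev rat 4113 was highest for Apoa1 (9266). On the drug, rat 4109 was lowest for the creatine transporter Slc16a12 (132), rat 4108 for C1s (362) and rat 4106 for Cyp2c11 (4044).

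The change with rev under CA differed from the change with rev without it, by limma's test of the difference, most for 12 genes. It was lower under CA for Acot1 (-3.64), Hdc (-3.52), Scd2 (-3.50), Aqp3 (-2.92), Serpinb9b (-2.90) and Asns (-2.70). It was higher for Slc25a30 (2.70), Socs2 (2.87), Cish (3.86), Nrep (4.07), Apoa4 (4.24) and Obp3 (5.68). The change without CA was 0.31 for Acot1, 0.10 for Hdc, 0.04 for Scd2, 0.11 for Aqp3, 0.75 for Serpinb9b and 0.04 for Asns, none past the threshold. For Cish (-1.64), Nrep (-2.08), Socs2 (-1.51), Slc25a30 (-1.28) and Obp3 (-1.91) the change without CA had a negative sign, of which Nrep's alone passed the threshold, and for Obp3 the value rests on rats 4081 and 4084. For Nrep too these rats had the lowest rev values.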

How the results depend on the processing

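No paired analysis was possible because the groups compared share no rats. Over probe sets, the counts as reported were 1590 for withdrawal, 285 for the difference of changes, 4 for rev without the drug, 15 against DEN rev rats, 872 for the drug before withdrawal and 1819 for withdrawal without DEN, and over genes 160 drug-raised were lower and 110 drug-lowered higher. Other constants, no filter, a filter at the 70th percentile and no trend moved none of these counts by more than 1.5 times. In the same order, no scaling gave 3725, 123, 2, 5, 212, 840, 23 and 29, and array weights gave 3023, 823, 13, 34, 1599, 3450, 249 and 175. The drug lists were remade in each run. They held 44 raised and 30 lowered genes without scaling, and 409 and 201 with array weights, rather than 256 and 160. Quantile normalization gave 561 for the difference of changes, 8 for rev without the drug, and 274 and 198 for drug lists that it made longer (370 and 266 genes). A 2-fold minimum gave 210, 177, 210 for the drug before withdrawal, 303 without DEN, 49 and 40. A fit of only the groups compared gave 5 against DEN rev rats. Without the 4 rats that also gave tumour sections, withdrawal gave 354, the difference 162, and the drug lists 85 and 60.

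With each rat left out in turn, withdrawal gave 981 to 1471, the difference 212 to 359, rev without the drug 2 to 14, against DEN rev rats 11 to 17, the drug before withdrawal 664 to 810, withdrawal without DEN 1251 to 1856, drug-raised 130 to 150 and drug-lowered 95 to 124. Without rats 4081, 4084 and 4111 together, chosen after seeing the data, 8 probe sets passed against DEN rev rats. Of 228 named withdrawal changes, 13 had the opposite sign without scaling: Decr1 (0.010), Acaa2 (0.092), Pex3 (0.057), Pex19 (0.12), Krt18 (0.058), Acadl (0.22), Hadha (0.14), Hadhb (0.17), Ech1 (0.12), Slc27a2 (0.029), Dgat1 (0.21), Sult1b1 (0.15) and Isg20 (0.11). A further 41 of the 228 no longer passed without scaling, and 31 newly passed. Without the 4 rats with tumour sections, 87 of 226 named changes no longer passed and 1 newly passed. In 2278 refits of the named changes with 1 rat left out, 231 no longer passed, 24 newly passed and 0 turned. Of the 12 largest differences of changes, 11 passed in every alternative run, and Socs2 missed without the 4 tumour-section rats. The cause of these moves was not tested.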

Other observations

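Rev rat 4111 gave 2 sections tagged TU, which entered no comparison. Scd2 was at 557 and 586 there, against 170.2 in the untagged section of the same rat, and Asns was at 292 and 276 against 174. Obp3 was at 4.21 and 53.7 against 334, and Oat was at 701 and 834 against 1328. The cytotoxic genes that set the untagged section apart were lower in the tagged ones: Prf1 was at 252 and 292 against 1552, and Gzmb at 119.8 and 102 against 1267. Cela1 was at 1595 and 993 against 238, while Chrna2 was at 352 and 275 against 396. The median log2 signal of the 256 drug-raised genes was 8.70 in each of the 2 sections, against 8.33 in the untagged one, and that of the 160 drug-lowered genes was 8.05 and 8.22 against 9.09. Sections tagged TU from rats on the drug (4107, 4109 and 4106) had Scd2 at 3665, 2264 and 1897. These are sections of single rats and were not tested.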
